A study of Homo sapiens with 14 samples.

Results

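Lysosomal enzymes and membrane proteins were followed at the transcript level in IMR90 cells, human lung fibroblasts. The set holds 40 genes chosen by function, out of 25306 genes listed in all 3 kinds of deposited table. It comprises 8 glycosidases, 4 sulfatases, 8 peptidases, 7 genes of lipid breakdown and transport, 6 membrane proteins, 5 genes of the proton pump (V-ATPase) and 2 transcription factors, TFEB and TFE3. The samples fall into 7 groups. The isolates of IMR90, named I79 and I10, were each taken young, meaning proliferating, and old, meaning passaged to replicative senescence. I79 ICM is the I79 isolate treated with inflachromene, a small molecule that binds HMGB1 and HMGB2, and its dose and duration are not in the labels. WT is labelled wild type and HMGB2 KD carries a knockdown of HMGB2, which the study made with siRNA. The labels of WT and HMGB2 KD name neither the isolate nor a control siRNA. Poly(A)+ RNA was sequenced from cells near confluence in all groups.

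The lysosome is the acidic compartment in which cells break down proteins, lipids, glycans and damaged organelles. Its hydrolases are made in the secretory pathway and sorted there by mannose 6-phosphate or other receptors, its membrane is lined by heavily glycosylated proteins such as LAMP1 and LAMP2, and the V-ATPase pumps in the protons that the hydrolases need. TFEB and TFE3 bind E-box motifs near the start of many lysosomal genes. The beta-galactosidase activity stained as a senescence marker comes from the lysosomal enzyme encoded by GLB1, and a larger lysosomal compartment is a known trait of senescent fibroblasts.

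Libraries held between 10971132 and 41168932 reads or counts. The 4 old and young groups each came as 1 column, so the isolates were their replicates. The knockdown target HMGB2 fell, with 27.1 and 27.3 CPM (counts scaled to library size) in the WT libraries against 3.22 and 3.64 CPM after knockdown. In old cells the senescence markers moved in both isolates: CDKN1A rose by 2.48 and LMNB1 fell by 2.86 on the log2 scale. All 8 fibroblast markers were detected in every library. The 8 macrophage markers summed to between 0.192 and 1.67 CPM, with PTPRC, CD14, CSF1R and CD163 among them, and the 4 epithelial markers to at most 0.752 CPM. Of the endothelial markers, TEK made up nearly the whole sum, and it stood higher in the old columns (214 and 165 CPM) than in the young ones (95.3 and 66.0 CPM). VWF was at 0.448 and 0.365 CPM in the young columns and at 2.82 and 2.49 CPM in the old ones. CDH5 was at 0 CPM in these columns, and PECAM1 was not listed in them. Whether the TEK reads came from a separate cell type, with a part in the results below, was not tested. In bulk RNA, fewer cells of a type and less RNA per cell cannot be told apart.

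The first comparison asks how lysosomal transcripts differ between senescent and proliferating cells. In TPM, which scales by transcript length as well as depth, the 40 genes summed to 4447 in I79 young and 7450 in I79 old, while the I10 columns gave 4486 when young and 6579 when old. The summed level was thus 1.68-fold higher in old I79 and 1.47-fold higher in old I10, and without CTSB, the second most abundant member in young cells, still 1.61-fold and 1.42-fold. Levels were spread over a wide range. CD63, a tetraspanin of late endosomes and lysosomes, led at 1025 and 1108 TPM in young cells, followed by the cysteine protease CTSB at 804 and 739 TPM and the sphingolipid activator precursor PSAP at 647 and 659 TPM. CTSB, PSAP and CD63 together took between 55.7% and 61.0% of the summed TPM. At the other end stood the cysteine protease CTSS (1.12 and 1.91 TPM), the fucosidase FUCA1 (1.73 and 2.55 TPM) and TFEB (4.46 and 4.20 TPM).

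**Figure D1:**
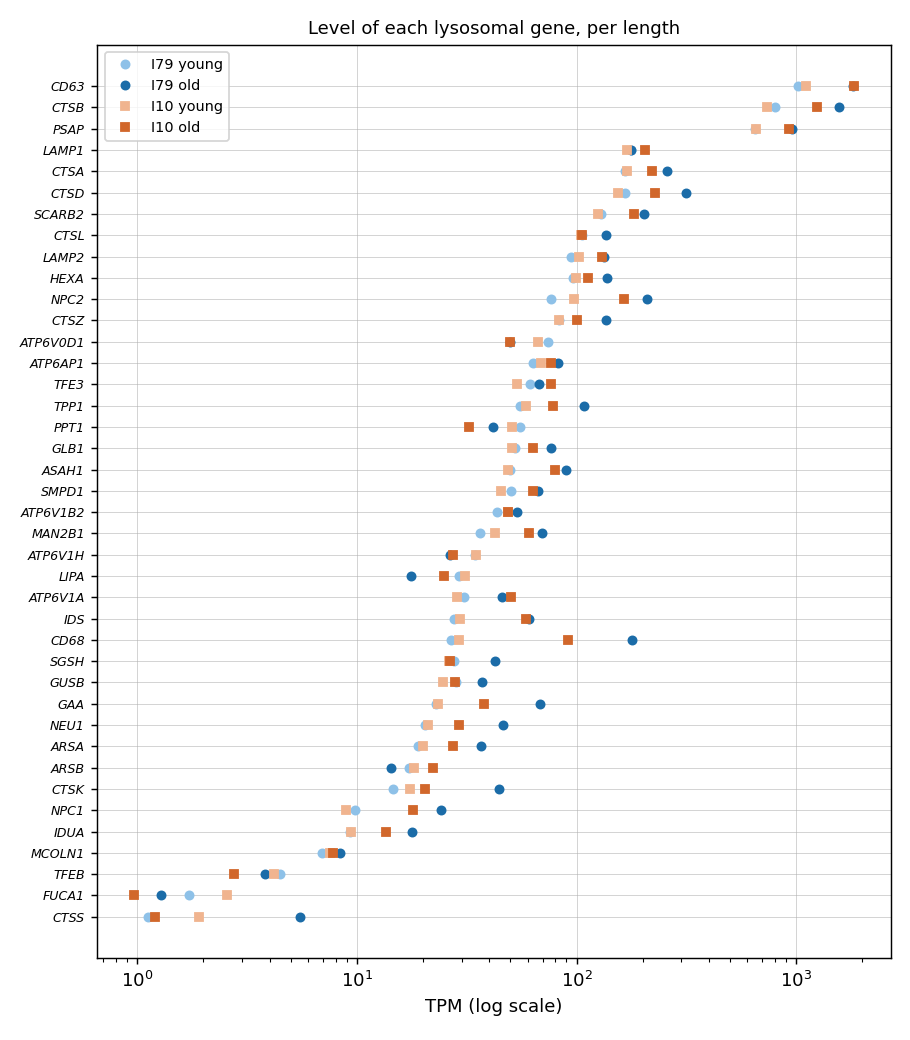
Level of each of the 40 lysosomal genes in TPM on a logarithmic axis, with 1 point for each of the 4 old and young columns and genes ordered by their mean in young cells. CD63, CTSB and PSAP lie at the top, between 647 and 1844 TPM, and CTSS, FUCA1 and TFEB at the bottom, below 6 TPM.

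All 40 genes could be tested over both isolates with the quasi-likelihood test of edgeR. Calls needed an adjusted p below 0.01 together with a log2 fold change beyond 0.6 in either direction. Log2 fold changes are of CPM, so they need not match the change in the TPM values printed beside them. Of the 40, 10 rose and 0 fell, which is 25%, against 9.57% of all 15116 genes tested called in either direction and 5.75% called higher in old. At an unadjusted p under 0.05, 33 members passed, against 45.4% of all genes, and DESeq2 called 19, against 14.3% of all genes. With plain library totals 1 member, PPT1, was called lower. Of the 10, GLB1, MAN2B1 and ATP6V1A lost their calls with length-scaled counts, GLB1 also with plain library totals and NPC1 without the isolate covariate. The median log2 fold change was 0.68 over the members and -0.01 over all genes tested. In both isolates 33 members were higher in old, 6 were lower in both and 1, ARSB, moved in opposite directions, whereas 40.1% of all genes were higher in both. Old and young columns did not overlap for 38 members. The background for that is high, at 74.0% of all genes tested. The signed log2 change was higher in I79 than in I10 for 29 of the 40, FUCA1 and TFEB with smaller falls among them. The median was 0.78 in I79 and 0.63 in I10. Of all genes, 21.6% were higher in old by over 0.6 in I79 and 18.5% in I10. This difference between isolates was not tested.

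For each role, the background is the 5.75% of all genes called higher in old. Among the glycosidases, which trim sugars from glycoproteins and glycolipids, 2 of 8 rose and the other 6 did not pass. GLB1, the beta-galactosidase, stood at 52.7 TPM in young and 76.2 TPM in old I79, and at 50.9 and 63.2 TPM in I10. Both old columns lay above both young ones, and in CPM its log2 fold change was 0.74 (adjusted p 0.00955 by edgeR, SE 0.10). Its interval in I10 from counting alone was 0.57 to 0.78. MAN2B1, the lysosomal alpha-mannosidase, rose by 1.10 in log2 CPM (adjusted p 0.00499 by edgeR, SE 0.10). It was at 36.2 and 42.4 TPM in young and 69.4 and 60.5 TPM in old. GAA, the acid alpha-glucosidase that degrades glycogen, reached 1.75 in I79 and 0.90 in I10 on the log2 scale but had an adjusted p of 0.0153 by edgeR. FUCA1 was 1 of only 6 members with a lower fitted value in old, at -0.73 (adjusted p 0.219 by edgeR) and with no more than 55 counts in any of the 4 columns.

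Of the sulfatases, which remove sulfate groups from glycosaminoglycans and sulfolipids, 1 of 4 rose. IDS, the iduronate sulfatase, stood at 27.7 and 29.6 TPM in young and at 60.7 and 59.0 TPM in old, and its log2 fold change of 1.13 (adjusted p 0.00499 by edgeR, SE 0.10) was close in the 2 isolates, at 1.19 and 1.06. ARSB, which acts on dermatan sulfate, was 0.21 lower in old I79 and 0.27 higher in old I10 on the log2 scale.

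The peptidases were higher in old cells in both isolates for all 8 genes in CPM, and 1 of them passed the test. CTSD, the aspartic protease that starts much lysosomal protein breakdown, stood at 166 TPM in I79 young and 316 in I79 old, and at 154 and 228 TPM in I10. Its log2 fold change was 1.09 (adjusted p 0.00579 by edgeR, SE 0.11). CTSB had nearly the same log2 fold change of 1.00 at a far higher level, with an adjusted p of 0.0137 by edgeR, and so just missed the threshold. CTSK, a collagen-degrading cathepsin, differed most between isolates, at 2.00 in I79 and 0.45 in I10. Among the called members, GLB1, MAN2B1, IDS, CTSD, NPC1 and NPC2 overlap protein-coding gene models, and CD68, CD63, ASAH1 and ATP6V1A overlap other gene models only, so reads could be shared in each. CTSS, at 16 to 79 counts per column, was higher in old I10 by CPM but lower by TPM (1.91 against 1.20).

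In lipid breakdown and transport, 3 of 7 genes rose. The roles hold at most 8 genes each, and differences in calls between them were not tested. NPC1 and NPC2, the paired carriers that pass cholesterol out of the lysosome, each rose by 1.22 in log2 CPM (by edgeR, adjusted p 0.00499 and 0.00895). NPC1 was at 9.81 and 8.94 TPM in young and 24.2 and 18.0 TPM in old. NPC2 was at 76.6 and 97.9 TPM in young and 210 and 164 TPM in old. ASAH1, the acid ceramidase, rose by 1.02 in log2 CPM (adjusted p 0.00551 by edgeR, SE 0.10). It was at 49.8 and 48.6 TPM in young and 89.8 and 79.8 TPM in old. In contrast, LIPA, the acid lipase, and PPT1, the palmitoyl-protein thioesterase, had negative values of -0.30 and -0.44 and were not called (adjusted p 0.189 and 0.0324 by edgeR).

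CD68, a heavily glycosylated membrane protein best known from macrophages, had the largest log2 fold change of the 40. It lies on chr17:7482809-7485429 of GRCh37. It stood at 26.8 TPM in I79 young and 180 in I79 old, and at 29.1 and 91.4 TPM in I10. Its log2 fold change was 2.37 (adjusted p 0.00659 by edgeR, SE 0.26), with 2.87 in I79 and 1.86 in I10. The macrophage markers named above stayed near 0 in these columns, where their sum was at most 0.553 CPM. CD63 rose by 0.94 in log2 CPM (adjusted p 0.0096 by edgeR, SE 0.13). It was at 1025 and 1108 TPM in young and 1821 and 1844 TPM in old. The 2 major membrane proteins were not called. LAMP1 stood at 177, 177, 170 and 204 TPM in I79 young, I79 old, I10 young and I10 old, a log2 fold change in CPM of 0.32 (adjusted p 0.137 by edgeR, SE 0.14). LAMP2 stood at 94.4, 133, 102 and 131 TPM in the same order, a log2 fold change of 0.47 (adjusted p 0.0296 by edgeR, SE 0.10).

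**Figure D2:**
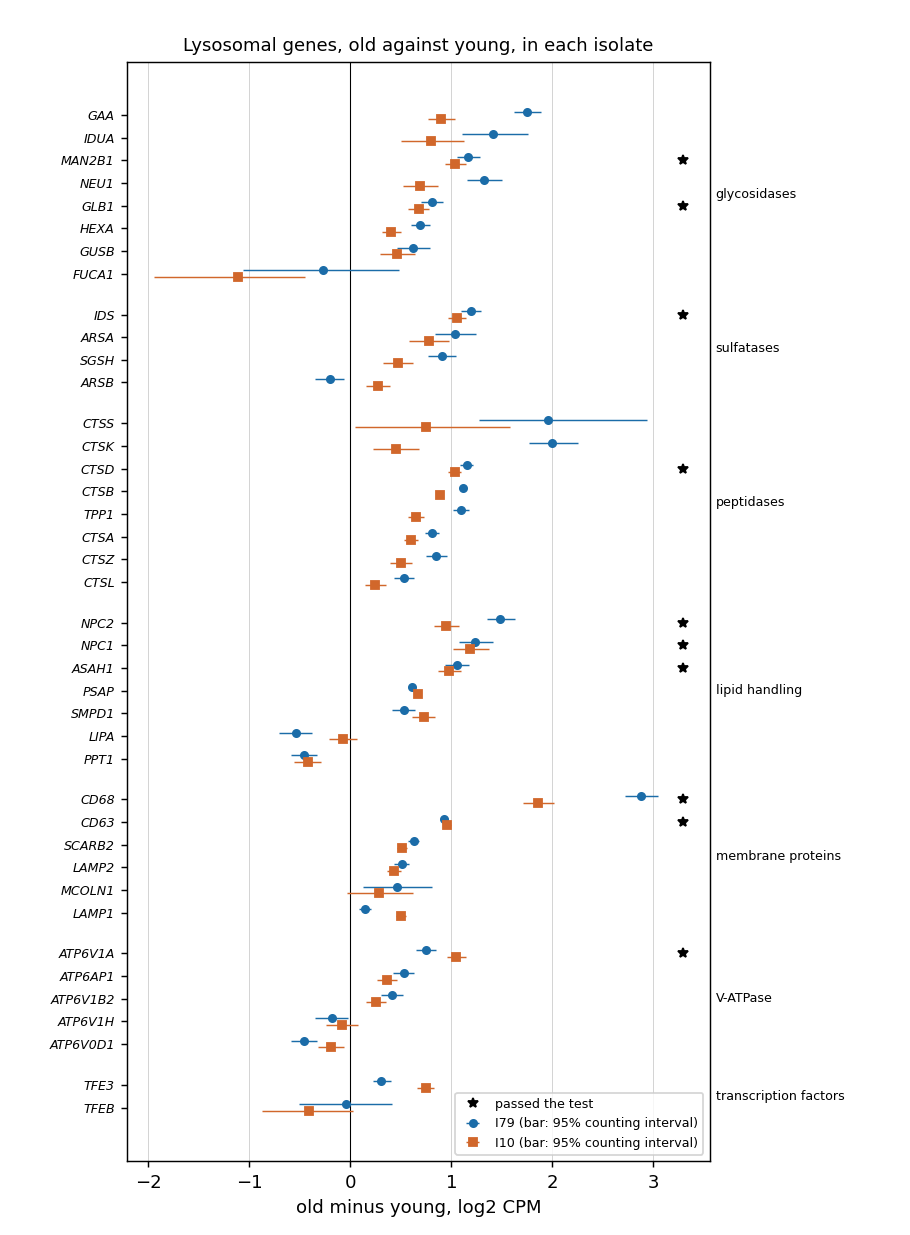
Log2 difference in CPM between old and young for each gene, by role, with 1 point per isolate and bars for the 95% counting interval. The 10 genes marked with a star passed the test, all to the right of 0, and CD68 lies farthest out at 2.87 and 1.86.

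Transcript estimates let the splice forms of LAMP2 be separated. They differ in the last exon, and LAMP-2A is the receptor of chaperone-mediated autophagy. LAMP-2B made up 63.6% of LAMP2 counts in I79 young and 63.5% in I10 young, against 51.3% and 49.0% in the old columns. LAMP-2A made up 29.6% in I79 young (exact 95% counting interval 27.8% to 31.5%) and 36.5% in I79 old (35.0% to 38.0%), and 28.7% and 41.6% in I10. LAMP-2C took 4.12% in I79 young and 9.77% in I79 old, with 4.52% and 6.27% in I10. The shift away from LAMP-2B was therefore seen in both isolates. With 1 column a group, the intervals cover counting error only and not the assignment of shared reads to a form.

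**Figure D3:**
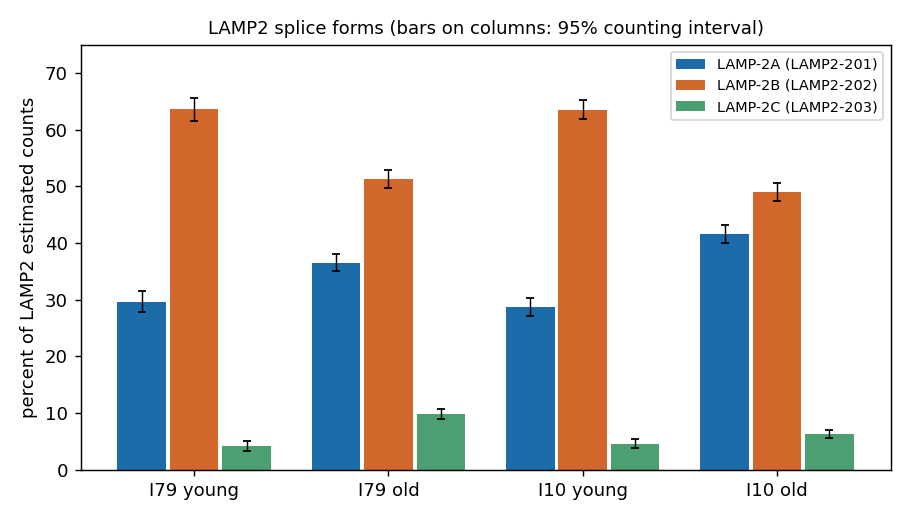
Share of LAMP2 estimated counts on each of 3 splice forms, as a percentage, in the 4 old and young columns, with bars for the 95% counting interval. LAMP-2B is lower and LAMP-2A and LAMP-2C are higher in the old column of each isolate.

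Of the V-ATPase genes, ATP6V1A, the catalytic subunit, rose by 0.90 in log2 CPM (adjusted p 0.00922 by edgeR, SE 0.12). It was at 30.6 and 28.5 TPM in young and 45.7 and 50.3 TPM in old. The other 4 did not pass, and the membrane-sector subunit ATP6V0D1 (-0.33) and ATP6V1H (-0.13) had negative values. Among 15 V-ATPase genes, taking those outside the 40 as well, 13 were higher in old in both isolates, against 40.1% of all genes. Of the 15, 2 were called (13.3%), both higher in old. Of all genes, 9.57% were called in either direction and 5.75% higher in old. The 2 transcription factors were not called. TFEB stood at 4.46, 3.83, 4.20 and 2.75 TPM in I79 young, I79 old, I10 young and I10 old, a log2 fold change of -0.23 (adjusted p 0.498 by edgeR, SE 0.24). TFE3 stood at 61.5, 67.7, 53.8 and 76.2 TPM, a log2 fold change of 0.53 (adjusted p 0.0463 by edgeR, SE 0.14). TFE3 lay above TFEB in every column.

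The E-box bound by TFEB and TFE3 was looked for in promoter windows of 300 bases (250 before and 50 after the gene start) from RefSeq on GRCh38.p14, on both strands. Windows were given for 28 of the 40 genes. CACGTG occurred in 9 of the 28 (32.1%) and in 8.77% of all gene symbols with a window. The longer TCACGTG, which contains it, occurred in 8 (28.6%) and in 4.49% of symbols, and TCACGTGA, which contains both, in 5 (17.9%) and in 1.18% of symbols. In old against young, the 9 genes with CACGTG had a median log2 fold change of 0.70 and the 19 without it 0.63. For TCACGTG the medians were 0.54 with it and 0.65 without, and for TCACGTGA 0.38 and 0.68. A match is only these letters in the window and not a binding site. The promoters of MCOLN1 and GAA, each with a pair of TCACGTGA matches, are printed up to the gene start, 5′ to 3′, with every TCACGTG or its reverse complement in capitals. They were chosen after their values were seen, to set like promoters beside unlike values: GAA was higher in old by 1.33 and MCOLN1, the lysosomal calcium channel, by 0.38 (neither called). MCOLN1 lies at chr19:7522374-7522623 on the plus strand and GAA at chr17:80101331-80101580 on the plus strand.
MCOLN1: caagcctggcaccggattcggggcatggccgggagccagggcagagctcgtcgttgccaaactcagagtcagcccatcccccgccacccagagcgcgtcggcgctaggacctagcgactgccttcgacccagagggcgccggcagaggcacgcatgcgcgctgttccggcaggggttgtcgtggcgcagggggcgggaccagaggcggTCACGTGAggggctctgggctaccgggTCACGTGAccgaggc
GAA: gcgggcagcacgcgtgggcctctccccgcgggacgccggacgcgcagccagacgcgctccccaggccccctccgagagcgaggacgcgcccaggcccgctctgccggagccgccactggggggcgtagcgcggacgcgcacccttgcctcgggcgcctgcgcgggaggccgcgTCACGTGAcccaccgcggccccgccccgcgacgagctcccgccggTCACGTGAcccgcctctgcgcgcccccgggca

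Single matches in CTSD, called higher in old, and in NEU1 and ATP6V0D1, not called, are shown with 10 flanking bases on each side. They begin 47, 127 and 60 bases before the gene start, and all 3 genes lie on the minus strand. The windows are chr11:1763958-1763984, chr6:31862932-31862958 and chr16:67481200-67481227.
CTSD: cggccgcgccCACGTGAccggtccggg
NEU1: tgctgcgtgaTCACGTGggaggagatg
ATP6V0D1: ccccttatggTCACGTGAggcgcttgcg

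Other lysosome genes, a list of 57 that excludes the 40, were counted beside them. Of 56 tested, 8 rose (14.3%, against 5.75% of all genes) and 0 fell, with a median of 0.52 against -0.01. The largest among those called were SORT1, a sorting receptor for lysosomal proteins, at 2.53, MANBA, the beta-mannosidase, at 1.68, and SLC17A5, the sialic acid exporter, at 1.66.

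The second comparison asks what loss of HMGB2 does to these genes. Here 39 of the 40 could be tested, since NEU1 had only 1 or 2 counts in each of the 4 libraries, whereas the old and young columns held 371 to 1097 counts of it. The cause of that difference between tables was not tested. Of the 39, 1 rose and 1 fell, which is 5.13% against 5.20% of all 15338 genes tested, so the members were called about as often as any gene. The median log2 fold change was 0.00 over the members and 0.00 over all genes. Between tables, WT already differed from I79 young, with log2 CPM ratios of 1.67 in CDKN1A, -1.94 in LMNB1 and -2.22 in HMGB2. Whether the members would respond alike in cells like I79 young was not tested. At an unadjusted p under 0.05, 15 members passed, against 23.9% of all genes. For 31 of the 39 the 2 groups did not overlap, against 53.8% of all genes tested.

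ATP6AP1, an accessory subunit that helps assemble the V-ATPase, lies on chrX:153656979-153664862 of GRCh37. It had 107 and 90.4 CPM in the WT libraries and 183 and 196 CPM with HMGB2 depleted. The groups did not overlap, with means of 98.5 ± 11.4 (SD, n = 2) and 190 ± 9.45 CPM (SD, n = 2). Its log2 fold change was 0.95 (SE 0.14), with an adjusted p of 0.000553 by edgeR, and it was called in all 11 alternatives. CTSK, at chr1:150767356-150782053 of GRCh37, had 41.4 and 32.9 CPM in the WT libraries and 23.6 and 17.5 CPM with HMGB2 depleted. Its log2 fold change was -0.85 (adjusted p 0.00468 by edgeR, SE 0.17), but the call was lost without WT replicate 1 and without HMGB2 KD replicate 2. CTSK was also the peptidase that differed most between isolates in old against young.

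FUCA1, CTSS and SMPD1, the acid sphingomyelinase, had adjusted p values of 0.0289, 0.0426 and 0.0301 by edgeR and were not called. The 6 genes set to be shown whatever their values gave the following. GLB1 was at 106 and 105 against 121 and 116 CPM (log2 fold change 0.16, adjusted p 0.476 by edgeR). LAMP1 was at 484 and 489 against 576 and 596 CPM (0.27, adjusted p 0.259 by edgeR). LAMP2 was at 207 and 218 against 204 and 173 CPM (-0.17, adjusted p 0.497 by edgeR). CTSD was at 495 and 473 against 385 and 429 CPM (-0.25, adjusted p 0.31 by edgeR). TFEB was at 2.89 and 3.51 against 4.48 and 6.04 CPM (0.72, adjusted p 0.0969 by edgeR), and TFE3 at 102 and 104 against 100 and 127 CPM (0.14, adjusted p 0.604 by edgeR). Of the 56 other lysosome genes tested, 1 rose and 1 fell (3.57%, against 5.20% of all genes), with a median of -0.01. The fall was in OSTM1, the partner of the chloride transporter CLCN7, at -1.01 on the log2 scale (adjusted p 0.00045 by edgeR).

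**Figure D4:**
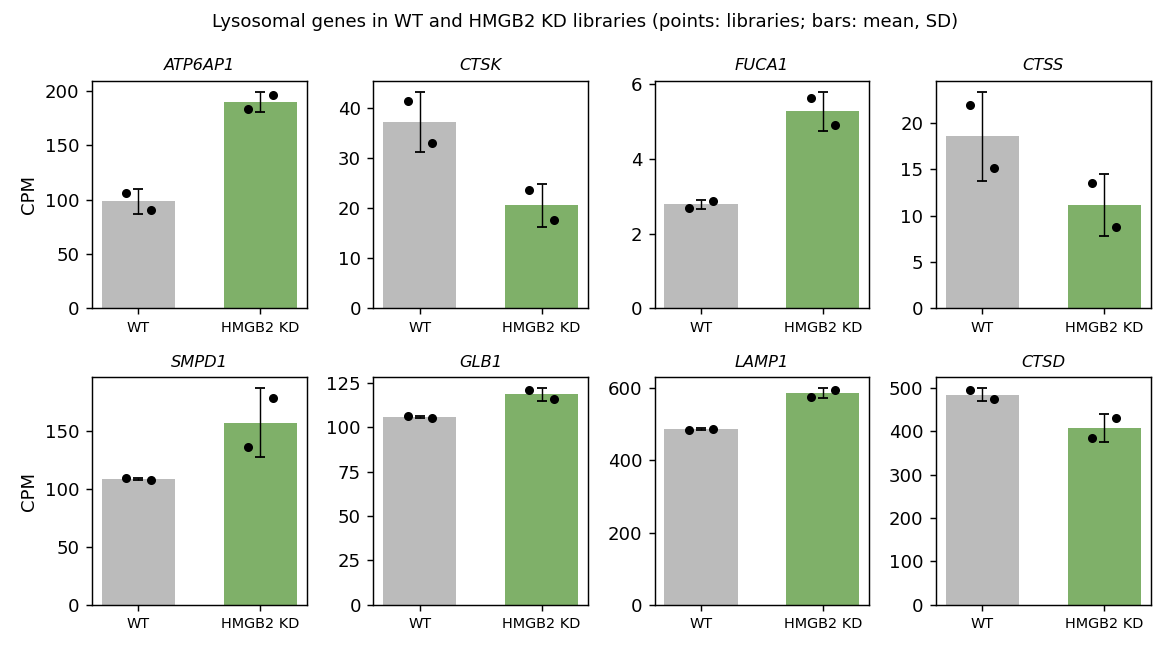
CPM of 8 lysosomal genes in the 2 WT and 2 HMGB2 KD libraries, with points for libraries, columns for the mean and bars for the SD (n = 2). ATP6AP1 is higher and CTSK lower in HMGB2 KD, and the WT and HMGB2 KD means of GLB1 are 106 and 118 CPM.

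The third comparison sets the ICM libraries beside I79 young. These tables were counted in different ways, so no test was run, and the ratio of WT to I79 young, also between kinds of table, serves as its background. Ratios are of CPM over shared genes, and the share of genes past 0.6 was taken over 13461 genes with a mean of at least 1 CPM. Of the 40, 25 stood higher than I79 young by over 0.6 in ICM and 3 lower, against 29.0% and 29.6% of genes. In WT 21 stood higher, against 19.6% of genes, and in I79 old 20, against 16.0%. The median over the members was 0.79 in ICM, 0.63 in WT and 0.61 in I79 old. With TMM scaling it was 0.83 in ICM, 0.64 in WT and 0.79 in I79 old, where 25 members then stood past 0.6, as many as in ICM. WT also differed from I79 young in CDKN1A (log2 ratio 1.67), LMNB1 (-1.94) and HMGB2 (-2.22). In I79 old these ratios were 2.56, -3.31 and -1.84. WT therefore cannot be taken as a background of counting alone, and the source of its differences was not tested. Over the members WT, whose labels name no ICM, stood nearly as high as ICM. For most members, the counting of the tables, the state of the WT cells and the treatment cannot be told apart.

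MCOLN1 had the highest ratio, at 54.5 and 58.9 CPM in the ICM libraries and 8.42 CPM in I79 young, a log2 ratio of 2.74, with 1.65 in WT and 0.30 in I79 old. NPC1 followed at 2.36 (WT 1.59), then ASAH1 at 1.92 (WT 1.12). CTSL, a cysteine protease, stood 1.38 above WT on the log2 scale, at 298 and 334 CPM in ICM, 88.9 CPM in I79 young, 114 CPM in I79 old and 124 and 118 CPM in WT. ATP6AP1 also stood above WT, at 204 and 218 CPM in ICM against 114 and 96.8 CPM. GLB1 was at 114 and 121 CPM in ICM, 119 CPM in I79 old, 114 and 113 CPM in WT and 76.3 CPM in I79 young.

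GUSB, the beta-glucuronidase, was the lowest, at 10.5 and 10.2 CPM in ICM against 32.8 CPM in I79 young and 39.2 and 39.95 CPM in WT. TFEB was at 2.45 and 1.72 CPM in ICM (32 and 18.5 reads), 5.54 CPM in I79 young and 3.10 and 3.76 CPM in WT. CTSK was at 5.36 and 7.61 CPM in ICM, 12.7 CPM in I79 young, 45.4 CPM in I79 old and 44.4 and 35.3 CPM in WT. CD68, with the largest rise in old cells, was at 58.7 and 65.4 CPM in ICM and 158 CPM in I79 old. TFE3 was at 216 and 209 CPM in ICM, 125 CPM in I79 young and 109 and 112 CPM in WT. LAMP1 was at 357 and 361 CPM in ICM, 311 CPM in I79 young and 519 and 523 CPM in WT. LAMP2 was at 175 and 168 CPM in ICM, 166 CPM in I79 young and 222 and 233 CPM in WT. CTSD was at 612 and 662 CPM in ICM, 178 CPM in I79 young and 530 and 507 CPM in WT.

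**Figure D5:**
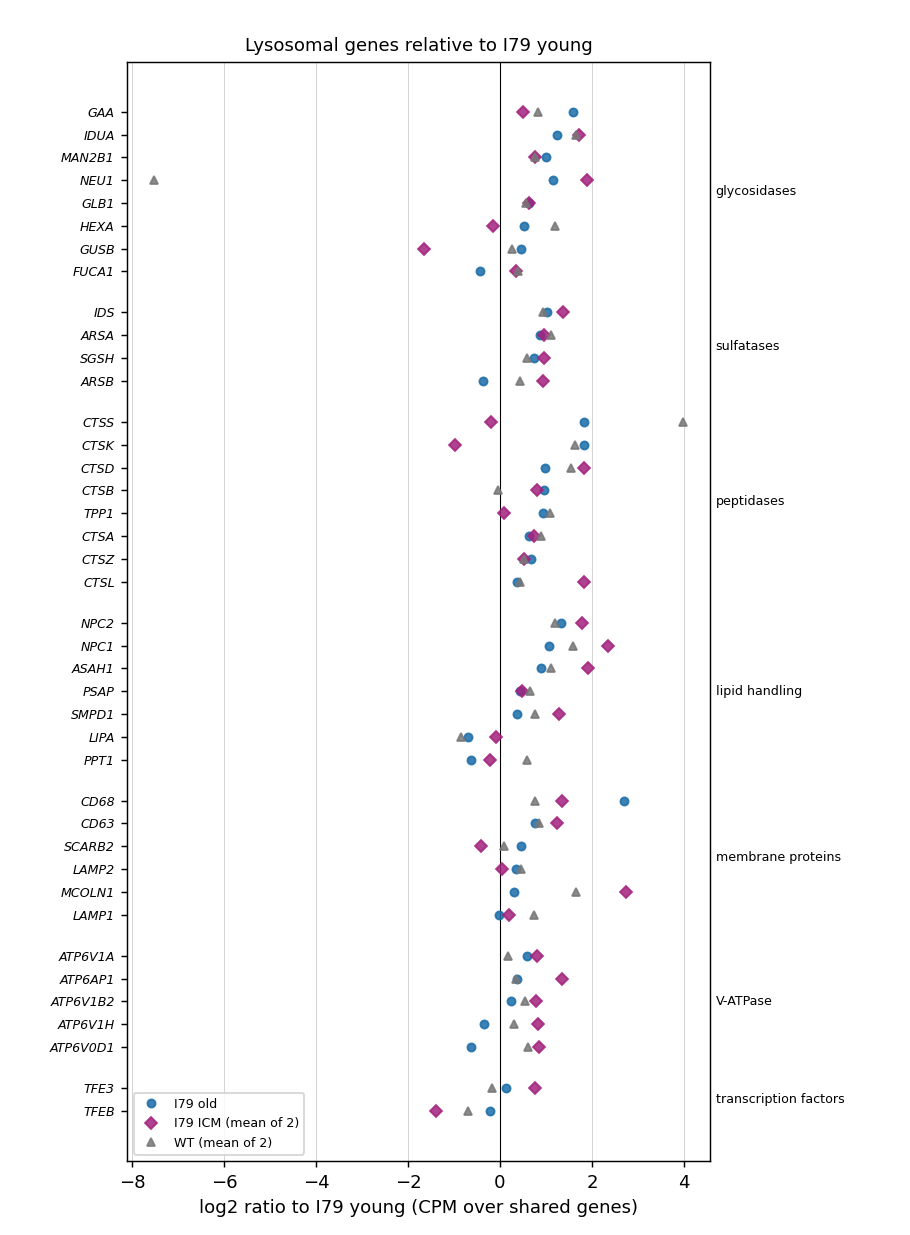
Log2 ratio to I79 young in CPM over shared genes for I79 old, I79 ICM (mean of 2) and WT (mean of 2), by role. Most ICM points lie to the right of 0, and so do most WT points; NEU1 in WT lies far to the left because its libraries held 2 counts each.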

How the data were processed

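Poly(A)+ RNA-seq tables of IMR90 cells were used as deposited. Raw counts per gene were deposited for each WT and HMGB2 KD library. For the old and young groups they deposited estimated counts and TPM per transcript, 1 column a group, treated as the authors' pooled value since the titles list 2 replicates. For ICM they deposited estimated counts of reads per gene region. The submitters' processing notes name STAR 2.6.0c, featureCounts and GRCh37, and which tool made which table is not given in the sources used here. The number of columns mapped to no sample or group was 0.

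Transcripts were summed per gene with GENCODE v44 on GRCh37 (97.7% of 205259 IDs matched) and rounded. Genes were tested with edgeR 4.0.16 in R 4.3.3 (quasi-likelihood, TMM, filterByExpr), with Benjamini-Hochberg adjustment. DESeq2 1.42.0 was an alternative. Old against young had isolate as a covariate and 1 residual degree of freedom. Replicates are not said to be separate cultures, so p-values measure the spread between these samples. CPM ratios between kinds of table used a prior count of 2. Within-isolate intervals are exact Clopper-Pearson at 95% and cover counting error only.

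Libraries held 33561766 to 41168932 counts (WT, HMGB2 KD), 14991385 to 20632959 (old, young) and 13290131 and 10971132 (ICM). Named genes were all called members, GLB1, LAMP1, LAMP2, CTSD, TFEB and TFE3, and the 3 largest called other lysosome genes in each direction. 1 of these genes is not reported here. GAA, CTSB and other members with values were added after their values were seen. The members and lists were chosen with earlier results of these data known.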

Additional observations from a re-analysis of the deposited data

Results flagged for a closer look

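ARSB moved in opposite directions in the isolates: its old minus young log2 change was -0.21 in I79 (95% counting interval -0.35 to -0.07) and 0.27 in I10 (0.15 to 0.39), a difference of -0.48. With 1 column for each group, the difference was not tested.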

How the results depend on the processing

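For HMGB2 KD against WT, 2 members were called. This became 4 at an adjusted p under 0.05 and 4 with the replicate block, and 1 to 3 when 1 library was left out. The labels do not say that libraries with the same replicate number are paired. Across genes, deviations from the group means correlated at 0.124 between WT replicate 1 and HMGB2 KD replicate 1. Over all 15338 genes tested, calls went from 797 to 1187 at an adjusted p under 0.05 and to 1243 with the block. Without HMGB2 KD replicate 2 all calls were 312. For old against young, 10 members were called. This became 21 at an adjusted p under 0.05, 19 with DESeq2 and 23 without a filter, and all calls went from 1447 to 3860 at 0.05, 4251 without a filter and 3130 with plain library totals. Length-scaled counts also called 10 members, 7 of them shared. Plain totals brought the median of all genes to -0.22 and the calls to 1019 higher and 2111 lower (main 869 and 578). In the knockdown they gave 385 higher and 484 lower (main 438 and 359). The members higher by over 0.6 numbered 25 in I79 alone and 21 in I10 alone, against 21.6% and 18.5% of all genes tested. For ICM, the median over members of 0.79 became 0.81 on coding and noncoding reads, 0.83 with TMM, 0.24 with WT as the reference and 0.77 to 0.79 with 1 library. The members past 0.6 became 24 to 25 with 1 library. With WT as the reference 10 of the 40 (25%) were higher and 7 lower, while 3974 of 13461 genes were higher and 3682 lower. On coding and noncoding reads with WT as the reference, 13 of the 40 (32.5%) were higher and 7 lower, against 3742 and 4492 genes. Whether members were more often higher than genes at large thus depended on the setting. The median was 0.24 over members and -0.02 over genes on all reads, and 0.34 and -0.11 on coding and noncoding reads. Signs turned only for members that were not called. In old against young, ARSB was -0.18 with plain library totals. In the knockdown, CTSL was -0.0099 with a RUVs factor and -0.0254 with plain totals, ATP6V0D1 was -0.0115 with plain totals, and PSAP was -0.0041 with DESeq2, -0.0041 with RLE scaling, -0.0093 without a filter, -0.0637 with plain totals and -0.0004 with the replicate block. With 1 library left out, GUSB ranged from -0.0195 to 0.0058, IDUA from -0.33 to 0.20, CTSL from -0.12 to 0.17, TPP1 from -0.0846 to 0.0483, ASAH1 from -0.29 to 0.0081, PSAP from -0.0735 to 0.0653, CD63 from -0.0607 to 0.20 and TFE3 from -0.0336 to 0.29.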

Other observations

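In 37 of the 40 genes the same transcript held the most estimated counts across the 4 columns of old and young cells. In PPT1, TFEB and TFE3 the leading transcript changed between columns. The main transcript of IDUA, the iduronidase, IDUA-201, held 50.1% of its counts in I79 young and 72.5% in I79 old, and 55.7% and 66.8% in I10. IDUA overlaps SLC26A1 on the annotation, and the I79 young share rests on 106 counts.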
